A study of Rattus norvegicus with 20 samples.

Results

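The question was whether an early low-iron diet went with different RNA levels in the nucleus accumbens than in the prefrontal cortex of adult rats. For each transcript accession the low-iron over standard diet difference (log2) in the cortex was subtracted from that in the accumbens, and the result is called the interaction. All 20 of the 20 libraries entered, with 5 in each combination of region and diet, and 11788 of 18288 accessions held enough reads to be tested. A negative interaction means that low-iron libraries stood lower, relative to standard-diet libraries, in the accumbens than in the cortex.

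The animals were males of the inbred rat strain Fischer344/Jcl, with no allele or drug named in the labels. The control groups ate the AIN-93G diet, a purified rodent diet, from 21 to 39 days of age, and the other groups ate a low-iron diet over the same days. All tissue was taken at 13 weeks, so each group was sampled as adults after the feeding period had ended. The iron content and the diet between 39 days and 13 weeks are not given in the sources used here, and the labels do not say that libraries of a group came from separate rats. The p-values therefore rest on the spread between libraries, part of which could be technical.

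Iron is a cofactor of tyrosine hydroxylase, which makes dopamine precursors, and of the mitochondrial respiratory chain, and developing neurons and oligodendrocytes draw heavily on it. The nucleus accumbens is ventral striatum, made mostly of GABAergic projection neurons with D1 or D2 dopamine receptors, while the prefrontal cortex is led by glutamatergic pyramidal neurons that project to it. The series title names reelin, a secreted glycoprotein made in the adult forebrain largely by GABA interneurons. It binds lipoprotein receptors such as VLDLR and acts through phosphorylation of the adaptor DAB1.

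Cortex libraries were deeper than accumbens libraries, with 10.3 ± 2.004 M assigned reads (SD, n = 5) on the standard diet and 9.36 ± 2.59 M on the low-iron diet, against 7.19 ± 1.35 and 5.13 ± 0.696 M in the accumbens. Region markers followed the labels: Drd1, the D1 receptor gene, stood at 326 to 503 CPM (counts scaled to the assigned reads of a library) in accumbens libraries and at 11.3 to 19.9 CPM in cortex libraries. Slc17a7, the vesicular glutamate transporter of cortical pyramidal neurons, reached at least 1228 CPM in cortex libraries. Adora2a, a D2 neuron marker, had 0 reads in every library for both of its accessions. Reads were counted per accession, and why this gene had none was not tested, so the 0 does not show that its RNA was absent. Standard-diet replicate 4 stood apart in each region. In the accumbens Slc17a7 reached 323 CPM, where no other accumbens library exceeded 18.1 CPM, with 1045 CPM summed over the cortical glutamatergic list against at most 658 CPM. In the cortex it held 1663 CPM summed over the meninges and fibroblast list against at most 353 CPM in the other cortex libraries, and the lowest cortical glutamatergic sum, 2752 CPM. The same library also held 395 CPM of septal markers against at most 144 CPM, 131 CPM of choroid plexus markers against at most 24.6 CPM and 61.8 CPM of cholinergic and basal forebrain markers against at most 28.7 CPM. Results are therefore given with all 20 libraries and, for many of them, also without these libraries. Values given only with all libraries can change without them too.

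No accession passed the interaction test (0 of 11788, or 0%, at an edgeR quasi-likelihood adjusted p under 0.05), and DESeq2 also called 0. At an unadjusted p under 0.05 there were 632 accessions in edgeR, or 5.36% of those tested, where uniform p-values would give 5%. Of these, 237 (2.01%) had a positive interaction and 395 (3.35%) a negative one. DESeq2 gave 594 at the same level. The edgeR count was 422 (3.58%) without cortex standard-diet replicate 4, 503 (4.23%) without accumbens standard-diet replicate 4 and 377 (3.19%) without both. It was 414 (3.51%) without cortex low-iron replicate 2, so the total moved by over 1.5 times with 1 library. The 377 included 285 of the 632, which is 45.1% of the larger set and 75.6% of the smaller, and all 632 kept their direction without both libraries. Both fits share most libraries, and the 632 were chosen by p in the full one, so the kept directions are no independent evidence.

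**Figure D1:**
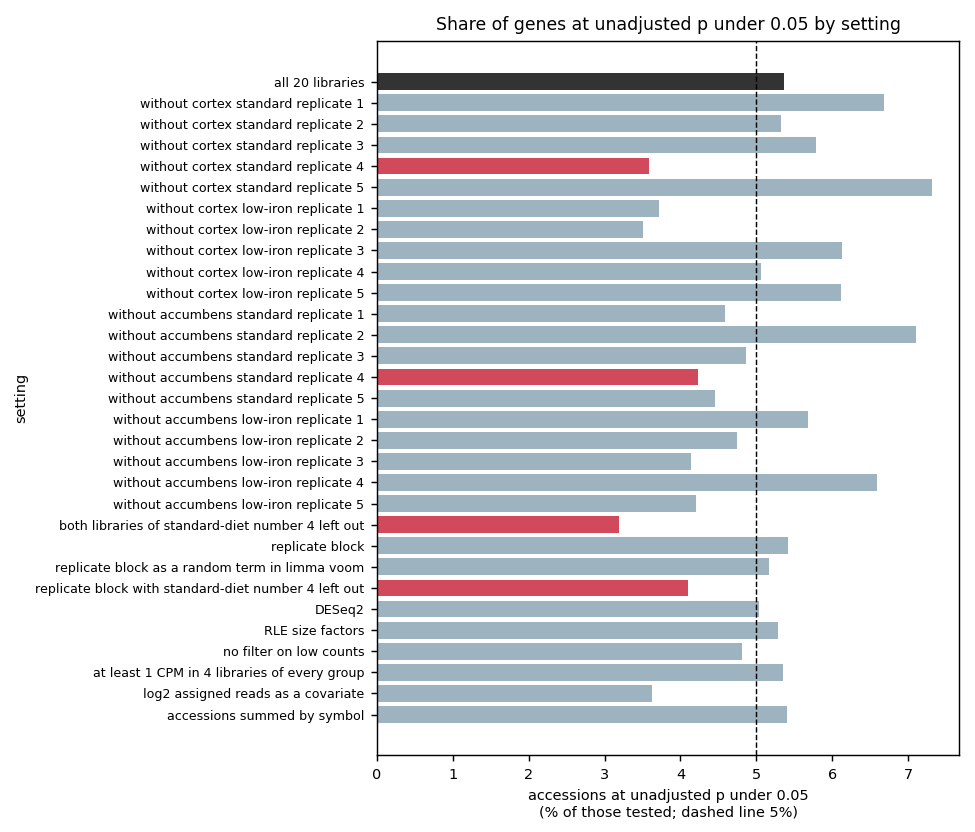
Share of tested accessions with an unadjusted interaction p under 0.05 (x axis, percent) under each setting (y axis), with all 20 libraries in black and the settings without a standard-diet replicate 4 in red. The bars run from 3.19% to 7.31% and lie on both sides of the dashed line at 5%.

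The intervals show what these libraries could resolve. The median SE of an interaction was 0.14 on the log2 scale, and the median half-width of a 95% interval was 0.28. For 10147 accessions (86.1%) the whole interval lay inside a 2-fold difference in either direction, and for 8164 (69.3%) it lay inside 1.5-fold. An interaction of 1 or more in size (log2) was estimated for 213 accessions (1.81%), and 87 of those averaged under 1 CPM in a region. Without both replicate 4 libraries, 76 accessions (0.643%) reached that size.

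Region accounted for far more of the spread between libraries than diet did in either form. Over 9267 accessions with a log2 CPM of at least 3, region took a median of 47.0% of the sum of squares of log2 CPM, diet 1.38%, the interaction 1.30% and the residual 45.5%. The mean share was 3.10% for the interaction, which has 1 degree of freedom, and 2.92% for each of the 16 residual degrees of freedom. For Reln, region took 93.6%, the interaction 1.76% and the residual 2.48%.

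Wnt9a had the lowest p of all accessions. It encodes a secreted Wnt ligand, a family that signals through Frizzled receptors in synapse formation and patterning, and lies on chromosome 10 (accession NM_001105783). Accumbens levels, scaled to TMM-normalized library sizes as for all single genes below, were 3.35, 2.60, 2.98, 4.73 and 2.23 CPM in standard-diet replicates 1 to 5. The low-iron accumbens libraries held 1.06, 1.62, 1.74, 1.40 and 1.10 CPM. The highest low-iron library there lay below the lowest standard-diet one. In the cortex the standard-diet libraries held 19.9, 21.2, 18.8, 16.8 and 25.6 CPM, and the low-iron libraries 26.3, 29.7, 22.2, 21.7 and 32.0 CPM. The cortical groups overlapped, with the low-iron libraries mostly higher. The diet difference was -1.17 (SE 0.26) in the accumbens and 0.37 (SE 0.13) in the cortex, an interaction of -1.54 (SE 0.29, 95% interval -2.14 to -0.94). The edgeR adjusted p was 0.314 and the DESeq2 adjusted p 0.0612, so neither tool called it. Accumbens values rested on 5 to 31 reads per library, against 122 to 351 in the cortex. Without both replicate 4 libraries the interaction was -1.33. The authors' deposited table lists Wnt9a at -1.18 (adjusted p 0.999) in the accumbens and 0.36 (adjusted p 0.842) in the cortex.

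Reln, on chromosome 4 (accession NM_080394), ranked 15 by p. Its accumbens levels were 34.8, 28.2, 39.3, 52.2 and 32.4 CPM on the standard diet and 17.9, 24.4, 17.1, 24.3 and 14.3 CPM on the low-iron diet, with no overlap. Groups without overlap occurred for 112 accessions (0.95%) in the accumbens and 147 (1.25%) in the cortex. Cortical Reln stood at 215, 243, 209, 361 and 236 CPM on the standard diet and at 231, 267, 240.0, 248 and 213 CPM on the low-iron diet. These groups overlapped, and the 361 CPM belonged to replicate 4, the library with the high meningeal, septal and choroid sums. The diet difference was -0.90 (SE 0.20) in the accumbens and -0.08 (SE 0.15) in the cortex. Their difference, the interaction, was -0.83 (SE 0.25, 95% interval -1.35 to -0.30), which puts the accumbens diet ratio at 0.564 times the cortical one (95% interval 0.393 to 0.810). It did not pass in edgeR (unadjusted p = 0.00365, adjusted p = 0.818). The authors' deposited tables list Reln at -0.92 (adjusted p 0.00512) in the accumbens and -0.09 (adjusted p 0.991) in the cortex. Those are diet comparisons within a region, not the interaction. For these, the edgeR fit used here called 0 of 11788 accessions in each region.

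The exact permutation test of Reln alone, which reassigned diet labels within each region over all 63504 assignments, gave a two-sided p of 0.0214 for the difference of differences. Its null is no diet difference in either region, so it does not test whether the diet differences are equal. Reln was tested alone because the series title names it, so this p is no independent evidence. Both replicate 4 libraries bear on the Reln interaction in opposite senses. Without the cortical one the interaction was -0.98 and the cortical diet difference turned to 0.09. Without the accumbens one the interaction was -0.69, and without both it was -0.85 (SE 0.16), with an edgeR adjusted p of 0.520 and the lowest unadjusted p of all accessions. Leaving out each library in turn gave interactions of -0.98 to -0.69. In bulk tissue fewer reelin-producing cells and less Reln RNA per cell cannot be told apart. Any part of neighbouring tissue in the Reln values, beyond leaving out the replicate 4 libraries, was not tested.

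**Figure D2:**
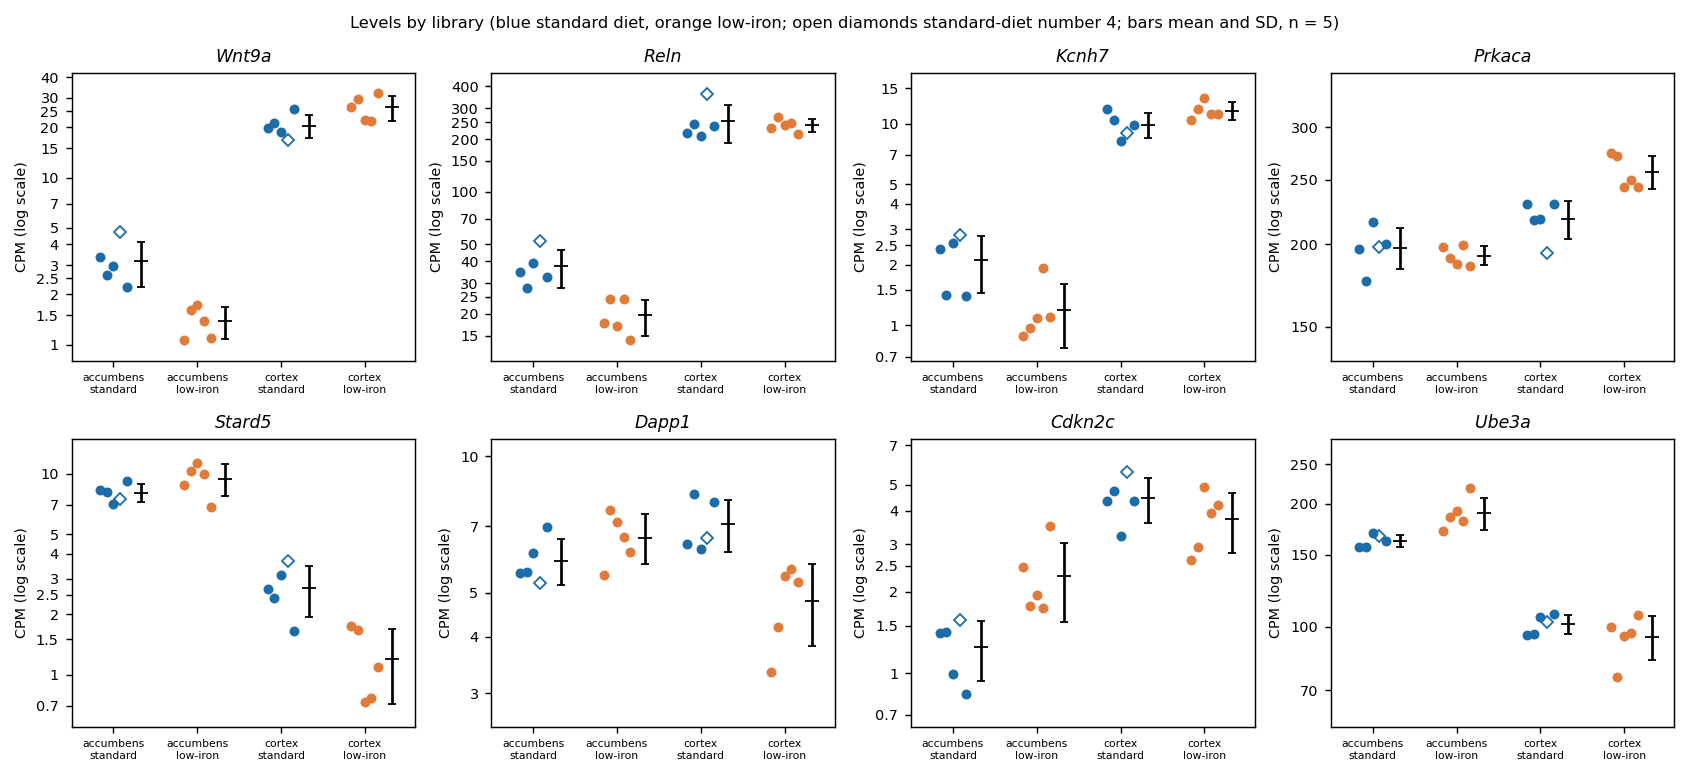
CPM (y axes, log scale) of 8 genes in each of the 20 libraries (x axis, region and diet), with standard-diet replicate 4 as open diamonds and black marks for the mean and SD (n = 5). Wnt9a and Reln libraries of the low-iron accumbens all lie below the standard-diet ones, while their cortical diet groups overlap.

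The reelin pathway list, Reln included, leaned to small negative values. Of its 23 tested members 18 had a negative interaction and 5 a positive one, with a median of -0.11, against 6131 of 11788 below 0 (52.0%) and a median of -0.01 over all accessions. None passed the adjusted test. Of the 23, 3 were under an unadjusted p of 0.05 and negative (Reln, Crk and Vldlr), where 3.35% of all accessions were. Without both replicate 4 libraries 17 were negative, the median was -0.06, and Reln and Crk were under 0.05. Over all accessions 241 of 11785 were then under 0.05 and negative. The list was built around the gene in the series title and is no independent evidence.

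Of the receptors, Vldlr stood at 48.9 to 60.7 CPM in the standard-diet accumbens, 45.4 to 52.2 CPM in the low-iron accumbens, 35.3 to 44.4 CPM in the standard-diet cortex and 41.8 to 46.8 CPM in the low-iron cortex. Its groups overlapped in both regions, with an interaction of -0.24 (SE 0.10), or -0.16 without both libraries. For the adaptor gene Dab1 the interaction was -0.19 (SE 0.18), with a 95% interval of -0.57 to 0.18. Downstream, Crk encodes an SH2 adaptor that binds phosphorylated DAB1. Its accumbens levels were 73.6, 75.9, 70.8, 75.7 and 84.1 CPM on the standard diet and 77.8, 68.2, 65.1, 65.8 and 63.0 CPM on the low-iron diet. In the cortex they were 70.0, 77.9, 72.9, 70.1 and 77.4 CPM against 80.1, 90.3, 80.0, 80.7 and 75.1 CPM. Crk thus lay mostly lower with low iron in the accumbens and mostly higher in the cortex, with overlap in each, and an interaction of -0.30 (SE 0.09). The kinase gene Limk1, which acts on cofilin and the actin cytoskeleton, had -0.43, and the cofilin gene Cfl1 had -0.16. The largest positive value in the list was that of the integrin gene Itgb1, at 0.16.

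The 12 lowest p-values in the negative direction were those of Wnt9a, Rbm17, Immt, Ly6e, Tspan33, Nsdhl, Kcnh7, Prkaca, Crk, Mark4, Atp6ap2 and Reln, with interactions from -1.54 to -0.22. The 12 in the positive direction were those of Stard5, Dapp1, Cdkn2c, Pde1c, Zmym6, Skap2, Eif4ebp3, Nipal2, Dse, Ube3a, Mdfic and Lima1, from 0.22 to 1.39. No gene among the 24 passed, with edgeR adjusted p from 0.314 to 0.818. The diet difference had opposite signs in the regions for 23 of the 24, Reln being the exception, and the groups did not overlap for 9 in the accumbens and 5 in the cortex. Over all accessions those shares were 0.95% and 1.25%, and choosing genes by a low interaction p favours such separation. All 24 kept their direction and an unadjusted p under 0.05 in each alternative that tested them. They were chosen by a low p in these libraries, which the alternatives mostly reuse, so this was largely set by the choice. Stard5 was not tested under the filter of at least 1 CPM in every group.

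**Figure D3:**
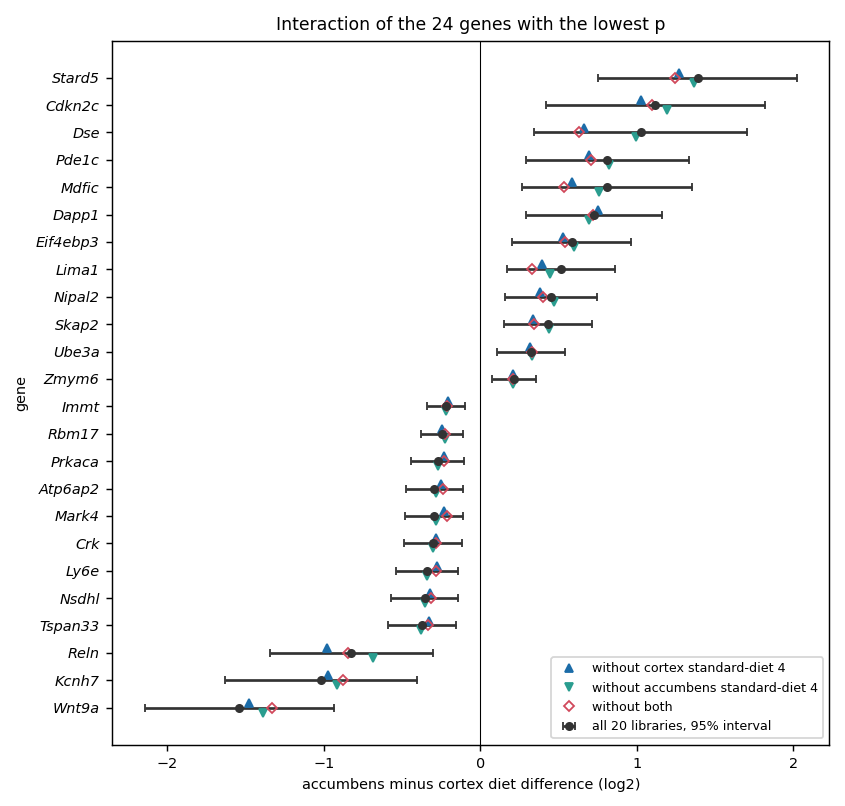
Interaction (x axis, log2) of the 24 named genes with 95% intervals from all 20 libraries, and the estimate without cortex standard-diet replicate 4, without accumbens standard-diet replicate 4 and without both. Estimates run from -1.54 for Wnt9a to 1.39 for Stard5, and every symbol of a gene lies on one side of 0. The genes were chosen by a low p with all 20 libraries.

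Among genes with a negative interaction, several act in neuronal signalling. Kcnh7 encodes a voltage-gated potassium channel of the ERG family and followed the Wnt9a pattern at low levels. It stood at 2.38, 1.42, 2.55, 2.80 and 1.39 CPM in the standard-diet accumbens and at 0.884, 0.970, 1.08, 1.92 and 1.10 CPM in the low-iron accumbens. Its cortical levels were 11.8, 10.4, 8.22, 8.94 and 9.82 CPM on the standard diet and 10.5, 11.8, 13.5, 11.1 and 11.1 CPM on the low-iron diet. Most low-iron accumbens libraries were lower, 1 of them overlapped the standard-diet range, and the interaction was -1.02 (SE 0.30), on 5 to 22 accumbens reads per library.

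Prkaca encodes the catalytic subunit alpha of protein kinase A, the cAMP-dependent kinase downstream of dopamine receptors. It stood at 176 to 216 CPM in the standard-diet accumbens (median 198 CPM) and at 186 to 199.6 CPM in the low-iron accumbens (median 191 CPM). In the cortex it stood at 229.8, 218, 218, 194 and 230.2 CPM on the standard diet and at 274, 271, 244, 249.8 and 244 CPM on the low-iron diet. The accumbens groups overlapped fully and the cortical groups did not overlap, so its interaction of -0.27 (SE 0.08) came from a cortical difference of 0.24 (SE 0.06). Mark4, a microtubule affinity regulating kinase, had -0.30 (SE 0.09), with all low-iron accumbens libraries (93.8 to 96.3 CPM) below all standard-diet ones (101 to 109 CPM). Its cortical groups overlapped, and cortex standard-diet replicate 4 was the lowest there, at 113 CPM.

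Other negative genes had small differences on high counts. Immt, a core subunit of the complex that shapes mitochondrial cristae, stood at 121 to 133 CPM in the standard-diet accumbens and 115 to 120.2 CPM in the low-iron accumbens. In the cortex it stood at 126 to 132 CPM and 128 to 147 CPM. The accumbens groups lay apart and the cortical ones overlapped, with an interaction of -0.22 (SE 0.06). The splicing factor gene Rbm17 (-0.24, SE 0.07) also had accumbens groups that lay apart. Nsdhl, an enzyme of cholesterol synthesis, had -0.35 (SE 0.10), and Atp6ap2, an accessory subunit of the vacuolar proton pump that acidifies lysosomes and endosomes, had -0.29 (SE 0.09). Tspan33 (-0.37) and Ly6e (-0.34) encode membrane proteins.

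Stard5 had the lowest p among positive interactions. It encodes a lipid transfer protein of the START family that binds cholesterol and bile acids, and lies on chromosome 1 (accession NM_001192011). In the accumbens it stood at 8.33, 8.15, 7.10, 7.54 and 9.19 CPM on the standard diet and at 8.84, 10.4, 11.3, 9.95 and 6.81 CPM on the low-iron diet. In the cortex it stood at 2.67, 2.40, 3.12, 3.69 and 1.66 CPM and at 1.75, 1.66, 0.727, 0.766 and 1.09 CPM. Groups overlapped in the accumbens, and in the cortex through 1 standard-diet library. The diet difference was 0.23 (SE 0.19) in the accumbens and -1.16 (SE 0.24) in the cortex, where libraries held 4 to 33 reads. The interaction was 1.39 (SE 0.31, 95% interval 0.76 to 2.02), with an adjusted p of 0.818 in edgeR and 0.0800 in DESeq2, and 1.25 without both replicate 4 libraries.

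Of the remaining positive genes, some had diet groups that lay apart in one of the regions and some, such as Pde1c, Eif4ebp3 and Lima1, in neither. Ube3a, the ubiquitin ligase gene of Angelman syndrome, had accumbens groups apart, with 157, 157, 169, 167 and 162 CPM on the standard diet and 172, 185, 192, 182 and 218 CPM on the low-iron diet. Its cortical levels were 95.3, 96.2, 105, 103 and 108 CPM against 99.9, 75.2, 94.7, 96.3 and 107 CPM, which overlapped, and the interaction was 0.32 (SE 0.10). Cdkn2c, an inhibitor of the cyclin-dependent kinases CDK4 and CDK6, was at 0.836 to 1.58 CPM in the standard-diet accumbens and 1.74 to 3.51 CPM in the low-iron accumbens, on 6 to 16 reads. Those groups lay apart, the cortical ones (3.23 to 5.59 CPM and 2.62 to 4.91 CPM) overlapped, and the interaction was 1.12 (SE 0.34).

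Dapp1, an adaptor that binds phosphoinositides, had cortical groups that lay apart. It stood there at 6.41, 8.25, 6.25, 6.59 and 7.91 CPM on the standard diet and at 3.35, 4.21, 5.45, 5.65 and 5.28 CPM on the low-iron diet. Its accumbens groups, at 5.26 to 6.96 CPM and 5.48 to 7.60 CPM, overlapped, and the interaction was 0.73 (SE 0.21). Pde1c, a calcium and calmodulin dependent phosphodiesterase, had 0.81 (SE 0.25), or 0.71 without both replicate 4 libraries. Dse, which encodes a dermatan sulfate epimerase of the extracellular matrix, had accumbens groups that lay apart, at 8.06 to 9.65 CPM on the standard diet and 10.98 to 13.3 CPM on the low-iron diet, and overlapping cortical groups. Its interaction was 1.03 with all libraries and 0.66 without cortex standard-diet replicate 4, which held 32.5 CPM of Dse against at most 14.2 CPM in the other libraries of its group. Mdfic, at 0.81, and Lima1, at 0.52, were also highest in that library among standard-diet cortex libraries, and stood at 0.58 and 0.40 without it. So were Stard5, Cdkn2c, Pde1c, Skap2, Eif4ebp3 and Nipal2. Their interactions were 1.39, 1.12, 0.81, 0.43, 0.58 and 0.45 with all libraries. Without that library they were 1.27, 1.03, 0.70, 0.34, 0.53 and 0.38. Dapp1, Zmym6 and Ube3a were not highest in it. The raised marker sums of cortex standard-diet replicate 4 are given above, and their part in these values beyond the change on leaving it out was not tested.

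**Figure D4:**
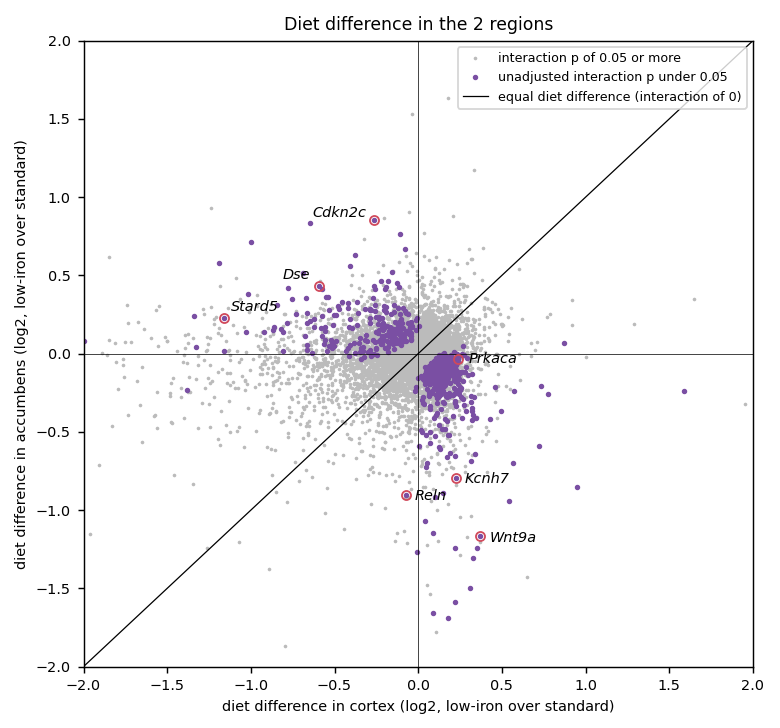
Diet difference (log2, low-iron over standard) in the cortex (x axis) and in the accumbens (y axis) for each tested accession within 2 log2 units, with those at an unadjusted interaction p under 0.05 in purple and the diagonal marking equal differences. Wnt9a lies at 0.37 and -1.17, Reln at -0.08 and -0.90 and Stard5 at -1.16 and 0.23.

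Crossing effects that lay apart in both regions were not seen. No accession (0%) had diet groups without overlap in both regions in opposite directions, and 2 (0.017%) had them in the same direction. These were Gamt, an enzyme of creatine synthesis (-0.21 in the accumbens and -0.12 in the cortex), and the lipid flippase subunit gene Tmem30a (0.11 and 0.17), both named after their values were seen. Of the 632 accessions at an unadjusted interaction p under 0.05, 611 (96.7%) had diet differences of opposite sign, against 48.3% of all accessions. That share follows in part from choosing accessions by the difference between the regions.

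Accessions with a negative interaction were more often ones that the cortex expresses more. Of the 395, 92 (23.3%) stood at least 2-fold higher in the cortex and 5 (1.27%) at least 2-fold higher in the accumbens. Of the 237 with a positive interaction, 2 (0.844%) were at least 2-fold higher in the cortex and 31 (13.1%) in the accumbens. Over all accessions the shares were 7.36% and 5.34%. Without both replicate 4 libraries, where both the set and the fit changed, 39 of 241 negative ones (16.2%) were higher in the cortex and 12 of 132 positive ones (9.09%) in the accumbens. Those libraries are the ones with the raised cortical glutamatergic sum in the accumbens and the raised meningeal, septal, choroid and basal forebrain sums in the cortex, whose part in these shares beyond leaving them out was not tested.

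Genes of synaptic vesicle release, the machinery that docks and fuses transmitter vesicles, formed the list with the most members under an unadjusted p of 0.05. Of 25 members tested, 22 had a negative interaction (median -0.15), and 7 of 25 were under 0.05, all negative, where 3.35% of all accessions were under 0.05 and negative. Among them were Syt1, Syt2, Rab3a and Nsf. Syt1, the calcium sensor of fast release, stood at 374 to 457 CPM in the standard-diet accumbens and 339.7 to 445 CPM in the low-iron accumbens. In the cortex it stood at 655, 715, 718, 606 and 751 CPM on the standard diet and at 852, 835, 709, 797 and 769 CPM on the low-iron diet, so groups overlapped in both regions. Its interaction was -0.30 (SE 0.11), or -0.24 without both replicate 4 libraries. That of the vesicle GTPase gene Rab3a was -0.25 (SE 0.10), or -0.19 without both. The list leaned by its cortical values, where 24 of 25 members were higher in low-iron libraries (median 0.11), while in the accumbens 18 of 25 were lower (median -0.07). Without both replicate 4 libraries 18 of 25 were negative, and the median was -0.08. Then 3 of 25 were under 0.05 and negative, where 241 of 11785 accessions were. No member passed the adjusted test.

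Receptor genes for glutamate and GABA had a negative interaction for 21 of 32 (median -0.04) with all libraries, for 16 of 32 (median 0.00) without cortex standard-diet replicate 4 and for 17 of 32 (median -0.01) without both. The lowest p-values were those of the presynaptic receptor gene Grm2 (-0.44, SE 0.17, and -0.40 without both) and the GABA-B subunit gene Gabbr2. Gabbr2 had -0.43 (SE 0.19) with all libraries and -0.22 without both, where its unadjusted p in edgeR was 0.110. Dopamine signalling genes had 8 of 15 above 0 (median 0.03) with all libraries, 12 of 15 without cortex standard-diet replicate 4 (median 0.03), 10 of 15 without both (median 0.01) and 11 of 15 with log2 assigned reads as a covariate (median 0.10), and no member was under an unadjusted p of 0.05 with all libraries. In the Wnt list, 27 of 41 were above 0 (median 0.11), and without both libraries 20 of 41 were above 0 (median -0.02). Wnt9a therefore went against the sign of the list's median with all libraries. The receptor gene Fzd6 went with it, at 0.49 (SE 0.22), or 0.37 without both.

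Mitochondrial and ribosomal genes leaned in opposite directions by small amounts. Of 69 nuclear-encoded subunits of oxidative phosphorylation, 63 had a negative interaction, with a median of -0.08 and a range of -0.20 to 0.07. Cytochrome c oxidase subunit Cox5b (-0.20, SE 0.09) and complex I subunit Ndufb10 (-0.15, SE 0.07) were the 2 members under an unadjusted p of 0.05. That is 2 of 69, where 3.35% of all accessions were under 0.05 and negative. The accumbens carried the lean, with 64 of 69 lower in low-iron libraries (median -0.07), and the cortex had a median of 0.00. Without both replicate 4 libraries 57 of 69 were negative, with a median of -0.07. Of 68 cytosolic ribosomal protein genes, 55 had a positive interaction, with a median of 0.05, or 54 of 68 without both libraries. Low-iron values lay below the standard diet in both regions, for 58 of 68 in the accumbens (median -0.05) and 66 of 68 in the cortex (median -0.10). Members of such lists vary together between libraries, and no member passed the adjusted test.

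Iron-handling genes showed little. Of 20 members for uptake, storage and export, 13 were above 0 (median 0.07), and without both libraries 12 were (median 0.01). The iron sensor gene Tfr2 had 0.56 (SE 0.24), or 0.38 without both libraries. Slc40a1, which encodes the iron exporter ferroportin, had 0.52 (SE 0.25), with an unadjusted p of 0.0513 in edgeR. Its cortical levels were 3.65, 3.93, 3.96, 3.69 and 4.59 CPM on the standard diet and 2.33, 2.45, 3.27, 2.11 and 2.46 CPM on the low-iron diet, without overlap, while accumbens groups at 3.33 to 5.99 CPM and 3.07 to 4.12 CPM overlapped. Heme and iron-sulfur cluster genes had 16 of 23 below 0 (median -0.04), and the lowest p was that of the scaffold gene Iscu (-0.20, SE 0.10), although Hmox2 (-0.62) and Isca2 (-0.24) had more negative values. The Hmox2 value rests on low mean levels, 0.925 CPM in the accumbens and 1.38 CPM in the cortex.

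**Figure D5:**
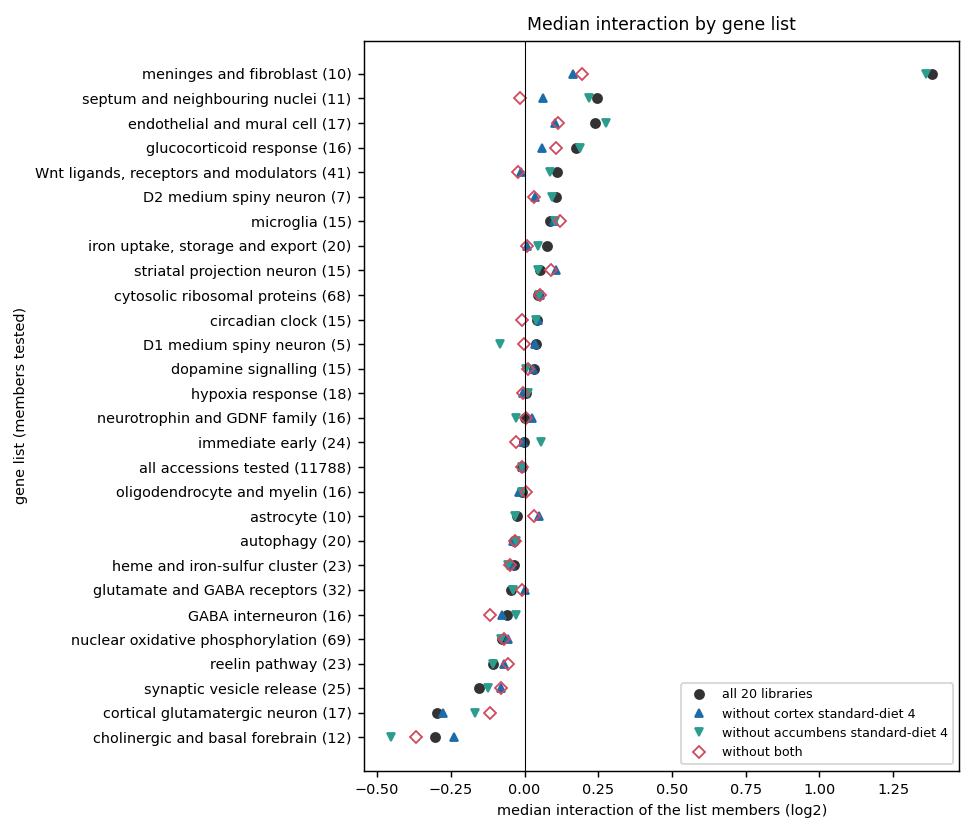
Median interaction (x axis, log2) of the members of each gene list with at least 5 tested members (y axis, number tested in parentheses), with all 20 libraries and without standard-diet replicate 4 of the cortex, of the accumbens or of both. The meninges and fibroblast median moves from 1.38 to 0.19, and most other medians lie between -0.30 and 0.25.

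Cell type lists gave the widest medians, and several of these moved with the replicate 4 libraries. The meninges and fibroblast list had 9 of 10 members above 0 with a median of 1.38, which was 0.16 without cortex standard-diet replicate 4 and 0.19 without both. Col3a1, a fibrillar collagen of fibroblasts, stood in the cortex at 42.5, 61.9, 76.3, 470.3 and 33.5 CPM on the standard diet and at 20.7, 14.9, 32.4, 33.3 and 96.0 CPM on the low-iron diet. The 470.3 CPM is replicate 4, and its interaction of 1.73 (SE 1.08) was 0.40 without both libraries. The cortical glutamatergic list had 13 of 17 below 0 with a median of -0.30, or -0.12 without both. Slc17a7 had the largest negative value in it, -3.44 (SE 1.35) with all libraries and -0.57 without both.

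Microglial genes kept their lean without the replicate 4 libraries, and vascular genes kept theirs at a smaller median. Of 15 microglial markers, 14 were above 0 with all libraries (median 0.09) and 14 without both (median 0.12). Trem2, a lipid-sensing receptor of microglia, stood in the cortex at 17.5, 13.2, 15.2, 13.3 and 14.2 CPM on the standard diet and at 10.9, 12.1, 12.5, 12.8 and 12.4 CPM on the low-iron diet, without overlap. Its accumbens groups overlapped, at 11.6 to 14.2 CPM and 11.3 to 16.3 CPM, and its interaction was 0.36 (SE 0.15). The complement gene C1qb had 0.23 (SE 0.11), and its unadjusted p in edgeR without both was 0.0565. Of 17 endothelial and mural markers, 15 were above 0 (median 0.24, or 0.12 without both). The lowest p was that of the angiopoietin receptor gene Tek (0.31, SE 0.14), which was not the largest value, and its unadjusted p in edgeR without both was 0.0750. In low-iron cortex libraries 12 of 15 microglial and 16 of 17 endothelial and mural markers were below the standard diet. In the accumbens 5 of 15 and 16 of 17 were, so the vascular markers lay below it in both regions (median -0.08 in the accumbens and -0.29 in the cortex). The cortical median was -0.20 without cortex standard-diet replicate 4. That library held the highest endothelial and mural sum of its group, 1646 CPM against at most 1251 CPM. None of the markers passed the adjusted test.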

How the data were processed

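Poly(A) RNA of 20 libraries was measured. The authors deposited read counts per RefSeq accession and library, and the unstranded column was used. Tools in the submitters' processing notes are STAR, HTSeq, DESeq, DESeq2 and Trimmomatic 0.36.3, with no roles, and the build is rn6. The log2 fold changes and p-values in the authors' deposited tables are the authors' own, and the counts in these tables matched the library files exactly for 17026 of 17026 accessions. Rows naming no gene (50.8 to 60.7% of reads) were left out. Libraries held 4.34 to 12.97 M assigned reads, so 3 reads, the limit that a count of 0 allows, were 0.231 to 0.691 CPM (counting error only). Among 40 within-group pairs the lowest chi-square per degree of freedom was 1.97, so no library was treated as a copy. Reads split evenly by strand (49.6 to 50.0%), so a gene and an antisense partner cannot be told apart, and reads shared by near-identical genes are uncertain. So are reads shared by accessions of the same gene, and 1582 accessions share a symbol with another. Symbols came from a RefSeq table of assembly GRCr8 for 17353 accessions and from the authors' tables for 859. Chromosomes are those of the authors' tables.

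Interactions were fitted in R 4.3.3 with the quasi-likelihood test of edgeR 4.0.16 (TMM, robust, filterByExpr with minimum count 10) over all 20 libraries with 4 group means, and p-values were adjusted by Benjamini-Hochberg over all accessions tested. The SE is the estimate divided by the square root of F. Diet differences within a region come from the same fit. DESeq2 1.42.0, limma 3.58.1, other normalizations and filters, a depth covariate, a replicate block and leaving out libraries were alternatives. On simulated counts with 200 changed genes among 11733, edgeR recovered 80% of 2-fold and 52% of 1.5-fold interactions with 4 false calls, and DESeq2 82% and 62% with 13. Those counts were drawn independently for each gene, with changes in the low-iron accumbens only. They hold no tissue differences shared by genes, so the rates are not the power of the real libraries. CPM summed over lists and CPM of region markers use assigned reads without TMM scaling.

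The comparison, the 29 gene lists and the members were chosen with earlier results of these data known. Since fewer than 10 genes passed, the named genes are the 12 lowest p-values in each direction, with Reln, Vldlr and Dab1 and the 2 lowest of each list discussed. Further members under an unadjusted p of 0.05 in such a list, and Limk1, Cfl1 and Itgb1, were named after their values were seen. The labels give no batch, and name 1 pool of 20 samples.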

Additional observations from a re-analysis of the deposited data

Results flagged for a closer look

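In 10 of 104 groups of 5 libraries tested for the named genes, 1 library stood far from the others of its group, where chance flags about 1 in 20 groups. In 6 of these it was cortex standard-diet replicate 4: Reln at 361 CPM, Dse at 32.5 CPM, Lima1 at 41.1 CPM, Nipal2 at 15.9 CPM and Mdfic at 12.6 CPM were its group's highest, and Mark4 at 113 CPM was its group's lowest. The same library held the highest meningeal sum of all libraries.

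The other single libraries were spread over groups. Pde1c was high in cortex low-iron replicate 5, at 3.37 CPM, and Nsdhl was low in cortex low-iron replicate 3, at 29.3 CPM. Eif4ebp3 was high in accumbens low-iron replicate 3, at 14.5 CPM, and the potassium channel gene Kcnh7 was high in accumbens low-iron replicate 4, at 1.92 CPM.

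Reln, the gene for reelin in the series title, had p = 0.0214 in the exact permutation test, with an interaction of -0.83 on the log2 scale. The null of that test is no diet difference in either region, so it does not test whether the diet differences are equal. All 5 low-iron accumbens libraries lay below all 5 standard-diet ones, and the cortical groups overlapped. Reln did not pass the interaction test of edgeR over all accessions.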

How the results depend on the processing

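In all 30 alternatives 0 accessions passed the adjusted test. The number at an unadjusted p under 0.05 was 414 to 862 with 1 library left out and 377 without both standard-diet replicate 4 libraries, against 632 with all, and 427 with log2 assigned reads as a covariate. The interaction of Reln ranged from -0.98 to -0.69 with 1 library left out. Its cortical diet difference, -0.08 with all libraries, ranged from -0.137 to 0.0863 with 1 left out, reversing without cortex standard-diet replicate 4, and was 0.0867 without both.

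Sp9, a D2 neuron transcription factor gene at 0.51 with all libraries, ranged from -0.346 (without cortex standard-diet replicate 4) to 0.809 with 1 left out, and was -0.391 without both and -0.384 without both with the replicate block. Six3, with reads in 1 cortex library and -1.10 with all, ranged from -1.34 to 0.189, reversing without that library. List medians moved beyond their spread for the reelin list (-0.0572 without both), the circadian list (-0.0342 with the depth covariate) and the meninges list (0.164 without cortex standard-diet replicate 4 and 0.193 without both). The cause was not tested.

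With the replicate number as a block in edgeR, 639 accessions were under an unadjusted p of 0.05 and 0 passed. Reln then had -0.86 (SE 0.14, adjusted p = 0.193), and within-number differences gave an exact permutation p of 0.00794, the smallest it can give. The labels do not say that equal numbers mark 1 rat. Same-numbered accumbens and cortex libraries correlated at -0.075 to 0.25 in their deviations, over 0.1 for 3 of 10 pairs, and 5 of 10 libraries correlated best with their own number, so the block was not the main fit. Depth limits the low genes: Wnt9a and Kcnh7 rest on as few as 5 accumbens reads.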

Other observations

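Stress hormone, cholinergic and striatal genes were not described above. Of 16 glucocorticoid-responsive genes, 15 had a positive interaction (median 0.17), 15 did without both standard-diet replicate 4 libraries (median 0.11) and 14 did without the cortical one alone (median 0.06), with none under an unadjusted p of 0.05 in edgeR. The 2 with the lowest p were Sult1a1, a sulfotransferase gene (0.64, SE 0.43, and 0.14 without both libraries), and Pdk4, a kinase gene that restrains pyruvate oxidation (0.72, SE 0.50, and 0.59). Of 12 cholinergic and basal forebrain markers, 9 were below 0 (median -0.30), 11 were without both libraries (median -0.37) and 7 were with log2 assigned reads as a covariate (median -0.18). The list's summed level spanned 190 to 542 CPM within the standard-diet accumbens and 231 to 395 CPM within the low-iron accumbens, and the 190 CPM was replicate 4, the library with raised cortical markers. The standard-diet median, 406 CPM, lay above the low-iron libraries.

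Striatal projection neuron markers had 12 of 15 above 0 (median 0.05), or 13 of 15 without both libraries (median 0.09), and all 15 were higher in low-iron accumbens libraries (median 0.13). The summed level of this list spanned 7173 to 11864.5 CPM in the standard-diet accumbens and 7765 to 11078 CPM in the low-iron accumbens. These groups overlapped, and such members vary together between libraries, so 15 of 15 is not a count of separate results. Oligodendrocyte and myelin genes, a cell type that draws on iron, had 8 of 16 above 0 and a median of -0.01. Low-iron values lay below the standard diet for 15 of 16 in the accumbens and 12 of 16 in the cortex. Circadian genes (8 of 15 above 0), hypoxia genes (10 of 18) and immediate early genes (12 of 24) were near even with all libraries. With that covariate 6 of 18 hypoxia genes were above 0. The autophagy gene Map1lc3a, which encodes a protein of the autophagosome membrane, had -0.33 (SE 0.10), with all low-iron accumbens libraries (137 to 153 CPM) below all standard-diet ones (161 to 166 CPM) and overlapping cortical groups.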
